A study of Homo sapiens with 16 samples.

Results

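The 37 RNAs encoded by the human mitochondrial genome were taken from a RIP-seq study, in which RNA bound by a tagged protein is pulled down and sequenced. All rows with a gene name starting MT- were used, without regard to their values: 13 mRNAs, 2 ribosomal RNAs (rRNAs) and 22 transfer RNAs (tRNAs) of 16324 genes in each of 2 tables. Strep-ALKBH5 pull-down (3 libraries) and its input (3), Strep-RBM33 pull-down (2) and its input (2), and the empty vector Strep-Vec-1, pull-down (3) and input (3), made up the samples used here. The cells were labelled UM-SCC-1, an established head and neck squamous carcinoma line, carrying each construct by lentivirus and selected with puromycin, so that tagged ALKBH5 or RBM33 was expressed beside the cells' own. ALKBH5 is an enzyme that removes the m6A methyl mark from RNA, and RBM33 is an RNA-binding protein.

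The files used here are the authors' own comparisons, labelled siCtrl, for ALKBH5 and for RBM33. No library has a value of its own in them, so neither per-library levels nor depths can be shown. Which libraries were compared, and which arm is on top of the ratio, is not stated. ALKBH5 mRNA had a log2 fold change of 1.28 by the authors' deposited table for ALKBH5, and RBM33 mRNA at 3.41 by the authors' deposited table for RBM33. Pull-down and input of a bait come from cells that carry its construct, so the sign of its own mRNA does not tell the direction, and values below are called positive or negative only. Of 15 fixed markers of squamous epithelium, 4 had a row, and 11, keratins 5 and 14 and TP63 among them, had none by the authors' deposited tables. Those 4 had an average log2 CPM (counts scaled to library size) of 1.02 to 4.61 by the authors' deposited table for ALKBH5, and of 1.65 to 4.43 by that for RBM33. Of 7 fixed markers of an embryonic kidney line, 5 had a row, with an average log2 CPM of 1.79 to 8.10 by the authors' deposited table for ALKBH5 and of 0.72 to 7.42 by that for RBM33. The neurofilament mRNA NEFL was the highest of them in both, and the kidney transcription factor mRNA LHX1 the lowest. Most defining markers of the labelled cell type thus had no row, and a low-count filter of unknown setting decides which genes have one.

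Mitochondrial DNA is transcribed into long precursors from both strands. Most mRNAs and both rRNAs lie on the plus strand of the reference sequence, which is transcribed from the heavy-strand promoter, and tRNAs sit between them and are cut out by RNase P and RNase Z, which frees the neighbouring RNAs. The mRNAs encode core subunits of the respiratory chain and of ATP synthase, and are translated in the mitochondrial matrix by ribosomes built on the mitochondrial rRNAs. ALKBH5 is known mainly as a nuclear protein, apart from the matrix. The samples are bulk pull-downs and inputs, so the values give neither the number of mitochondria nor the RNA per mitochondrion.

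A gene is called here when its deposited adjusted p is under 0.05. Of the 37 members, 20 were called negative and 1 positive by the authors' deposited table for ALKBH5, where 29.1% of all genes were negative and 30.5% positive. With RBM33, 17 members were negative and 2 positive, against 27.0% and 24.0% of all genes, by the authors' deposited table. By class, 12 of 13 mRNAs were negative by each of the authors' deposited tables. Among the 22 tRNAs, 7 were negative and 1 positive for ALKBH5, and 3 negative and 2 positive for RBM33, by the authors' deposited tables. The share of tRNAs called negative was 31.8% for ALKBH5, near that of all genes, and 13.6% for RBM33 by the authors' deposited tables.

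**Figure D1:**
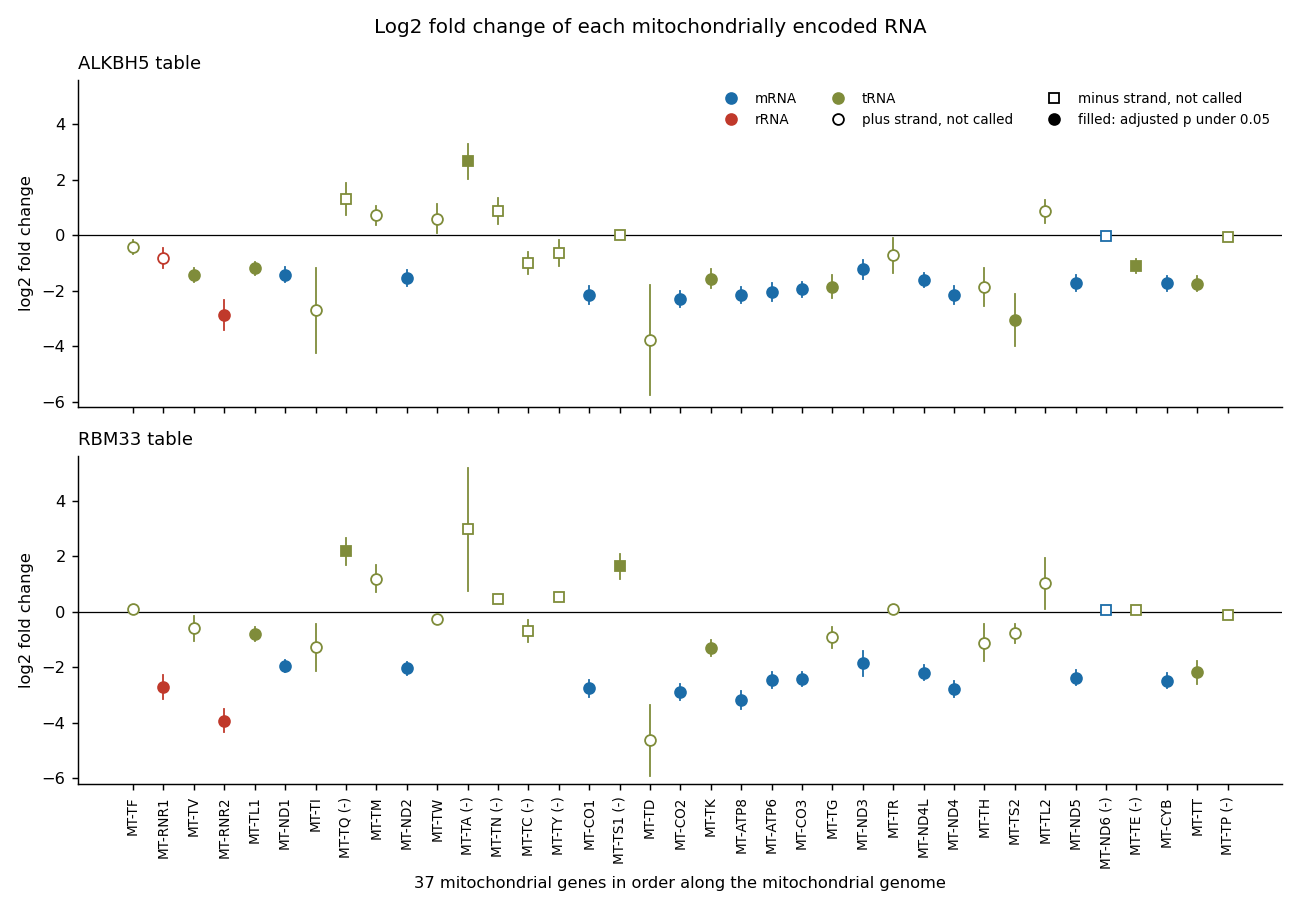
Log2 fold change (vertical axis) of the 37 mitochondrial genes in genome order in the ALKBH5 table (top) and the RBM33 table (bottom). Circles are plus-strand and squares minus-strand genes, filled where adjusted p is under 0.05, and lines show 1 implied standard error either side where F is at least 1. All 12 plus-strand mRNAs lie below 0 in both panels. MT-ND6, on the minus strand, lies near 0 and has no line, because its F is under 1.

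Values along the genome ran unevenly, as the plot of members in genome order shows. By strand, 19 of 28 plus-strand members (67.9%) were negative and 0 positive by the authors' deposited table for ALKBH5, and 17 (60.7%) and 0 by the authors' deposited table for RBM33. Of the 9 minus-strand members (MT-ND6 and 8 tRNAs), 1 was negative and 1 positive for ALKBH5, and 0 and 2 for RBM33, by the authors' deposited tables. Strand goes with class here, since the plus strand holds both rRNAs and 12 mRNAs. Of tRNAs for ALKBH5, 6 of 14 plus-strand (42.9%) and 1 of 8 minus-strand ones were negative by the authors' deposited table. For RBM33, 3 of 14 (21.4%) and 0 of 8 were negative by the authors' deposited table. Of all genes, 29.1% were negative and 30.5% positive for ALKBH5, and 27.0% and 24.0% for RBM33, by the authors' deposited tables. The 2 positive minus-strand members for RBM33 (22.2%) were thus near the share of all genes. The median over plus-strand members was -1.73 and over minus-strand members -0.05 by the authors' deposited table for ALKBH5. Over tRNAs alone it was -1.50 on the plus and -0.02 on the minus strand there. Minus-strand members had a median of 0.46 with RBM33 by the authors' deposited table, and the plus-strand mRNAs and tRNAs -2.45 and -0.79. The minus-strand tRNAs had a median of 0.50 there. The median of all genes was 0.03 and -0.02 by the authors' deposited tables for ALKBH5 and RBM33. The strand setting of the counting is not given in the sources used here, and reads of opposite strands may be mixed. The part of this in the values was not tested.

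The rRNAs were the most abundant members. MT-RNR2 (ENSG00000210082, chrM, 1671 to 3229, plus strand), the rRNA of the large mitochondrial ribosomal subunit, ranked 1 of all genes, with an average log2 CPM of 17.43 and 16.78 by the authors' deposited tables for ALKBH5 and RBM33. Its log2 fold change was -2.88 (adjusted p = 0.000536) with ALKBH5 and -3.93 (adjusted p = 1.84e-05) with RBM33 by the authors' deposited tables. MT-RNR1 (ENSG00000211459, chrM, 648 to 1601, plus strand), the rRNA of the small subunit, had an average log2 CPM of 14.07 and 14.25 there. It stood at -0.83 by the authors' deposited table for ALKBH5, where its unadjusted p was 0.0407 and the adjusted p 0.0660, and at -2.72 by the authors' deposited table for RBM33, where adjusted p = 0.000288. MT-RNR1 thus missed the threshold in the ALKBH5 table, 1 of 2 rRNAs, and both rRNAs were negative in the RBM33 table. An approximate standard error was computed as the size of the log2 fold change over the square root of the deposited F statistic, and is called the implied standard error. From the authors' deposited table for ALKBH5 it was 0.37 for MT-RNR1 and 0.55 for MT-RNR2, and from that for RBM33 it was 0.42 and 0.40. The library kit named in the labels includes a step that cleaves cDNA of ribosomal RNA, mitochondrial rRNA included, so both rows show what that step left. Its part in the values was not tested.

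MT-RNR2 held 15.0% of the average CPM summed over all rows of the authors' deposited table for ALKBH5, and 10.9% for RBM33. All 37 members together held 20.5% for ALKBH5 and 16.9% for RBM33 of that sum by the authors' deposited tables. The 13 mRNAs held 4.05% and 4.06% and the 22 tRNAs 0.0543% and 0.0477% of the sum by the authors' deposited tables for ALKBH5 and RBM33. The sum itself was 1.18e+06 for ALKBH5 and 1.03e+06 for RBM33 by the authors' deposited tables, which is not a library's total. The percentages are thus not shares of reads. How the libraries were scaled against each other is not stated, and rows of this size enter any scaling to the library total. What that did to other genes was not tested.

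**Figure D2:**
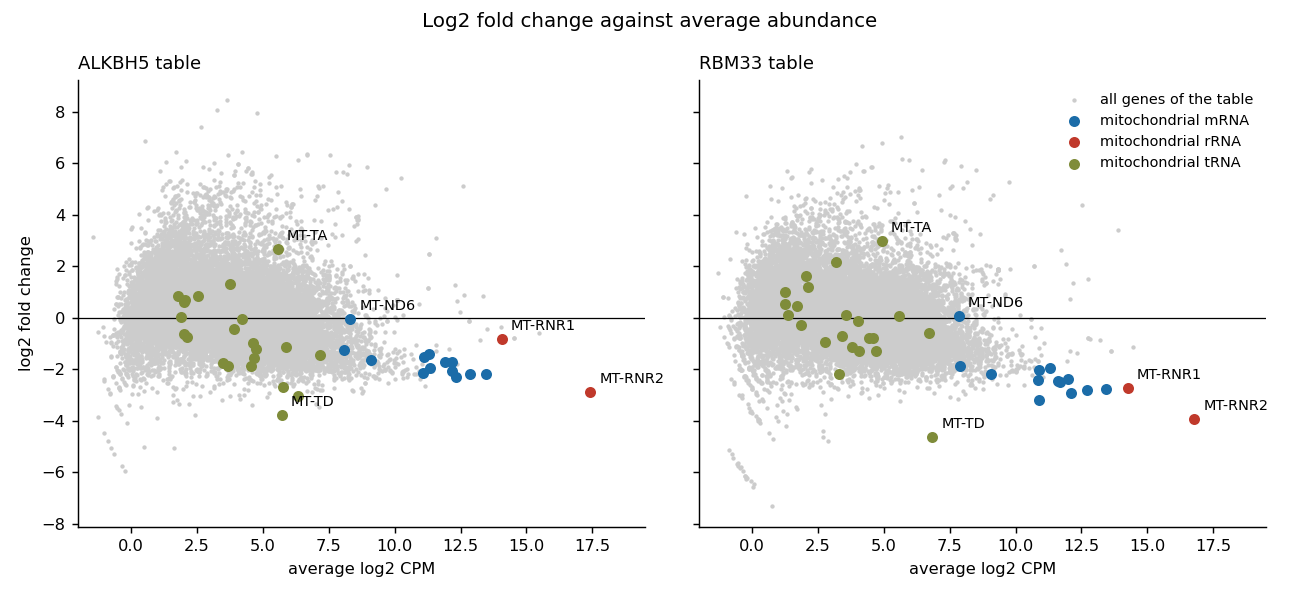
Log2 fold change (vertical axis) against average log2 CPM (horizontal axis) for all 16324 genes (grey) and for mitochondrial mRNAs (blue), rRNAs (red) and tRNAs (green) in the ALKBH5 table (left) and the RBM33 table (right). MT-RNR2 lies farthest right, and the tRNAs spread on both sides of 0.

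Cytochrome c oxidase (complex IV) takes 3 subunits from mitochondrial mRNAs, which form its catalytic core. MT-CO1 (ENSG00000198804, chrM, 5904 to 7445, plus strand) stood at -2.17 with ALKBH5 (adjusted p = 7.05e-05) and -2.76 with RBM33 (adjusted p = 2.39e-05) by the authors' deposited tables. MT-CO2 (ENSG00000198712, chrM, 7586 to 8269) stood at -2.31 (adjusted p = 1.73e-05) and -2.90 (adjusted p = 1.47e-05) for ALKBH5 and RBM33 by the authors' deposited tables, the smallest adjusted p of all members in both. MT-CO3 (ENSG00000198938, chrM, 9207 to 9990) stood at -1.96 (adjusted p = 1.97e-05) and -2.43 (adjusted p = 2.74e-05) for ALKBH5 and RBM33 by the authors' deposited tables. All 3 mRNAs were thus negative in both tables, and differences among them were not tested.

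ATP synthase (complex V) takes its membrane subunits a and 8 from a shared mRNA, in which MT-ATP8 and MT-ATP6 overlap by 46 bases. MT-ATP8 (ENSG00000228253, chrM, 8366 to 8572, plus strand) stood at -2.15 (adjusted p = 2.55e-05) with ALKBH5 and -3.18 (adjusted p = 1.86e-05) with RBM33 by the authors' deposited tables. MT-ATP6 (ENSG00000198899, chrM, 8527 to 9207) stood at -2.05 (adjusted p = 8.98e-05) and -2.46 (adjusted p = 3.26e-05) for ALKBH5 and RBM33 there, by the authors' deposited tables. Although they share a transcript, MT-ATP8 was lower than MT-ATP6 by more than their implied standard errors of 0.32 and 0.28 in the RBM33 table, and not in the ALKBH5 table. That difference was not tested. Reads across the overlap cannot be assigned to either gene by position alone.

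NADH dehydrogenase (complex I) takes 7 subunits from mitochondrial mRNAs, and 6 of them (85.7%) were negative by each of the authors' deposited tables. Of its listed nuclear subunits, 31 of 37 (83.8%) and 32 of 37 (86.5%) were negative for ALKBH5 and RBM33 by the authors' deposited tables. The shares of all genes called negative were 29.1% and 27.0% by the authors' deposited tables. MT-ND4 (ENSG00000198886, chrM, 10760 to 12137, plus strand) was the lowest of the 7 mitochondrial mRNAs, at -2.16 with ALKBH5 (adjusted p = 7.81e-05) and -2.79 with RBM33 (adjusted p = 1.76e-05) by the authors' deposited tables. MT-ND4L (ENSG00000212907, chrM, 10470 to 10766), which shares a transcript with MT-ND4 and overlaps it by 7 bases, stood at -1.63 (adjusted p = 0.000108) and -2.20 (adjusted p = 4.01e-05) for ALKBH5 and RBM33 by the authors' deposited tables. MT-ND5 (ENSG00000198786, chrM, 12337 to 14148) stood at -1.73 and -2.38, MT-ND2 (ENSG00000198763, chrM, 4470 to 5511) at -1.53 and -2.04, and MT-ND1 (ENSG00000198888, chrM, 3307 to 4262) at -1.42 and -1.96 for ALKBH5 and RBM33 by the authors' deposited tables. The adjusted p of these 3 lay between 3.48e-05 and 0.000452 over both of the authors' deposited tables. MT-ND3 (ENSG00000198840, chrM, 10059 to 10404) was the least negative plus-strand mRNA, at -1.24 (adjusted p = 0.0118) and -1.86 (adjusted p = 0.0173) for ALKBH5 and RBM33 by the authors' deposited tables. MT-CYB (ENSG00000198727, chrM, 14747 to 15887), the mitochondrial subunit of complex III, stood at -1.74 (adjusted p = 0.000122) and -2.48 (adjusted p = 3.37e-05) for ALKBH5 and RBM33 by the authors' deposited tables.

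MT-ND6 (ENSG00000198695, chrM, 14149 to 14673) is the complex I subunit encoded on the minus strand, and its mRNA is known to lack a poly(A) tail. It stood at -0.05 (adjusted p = 0.853) with ALKBH5 and 0.06 (adjusted p = 0.943) with RBM33 by the authors' deposited tables. Its F statistic was under 1 in both, so no implied standard error is given. How precisely it lies near 0 is thus not shown. Its average log2 CPM was 8.32 and 7.84, close to the 8.09 and 7.89 of MT-ND3, by the authors' deposited tables for ALKBH5 and RBM33. The difference between MT-ND6 and MT-ND3 was not tested. The call of MT-ND3 was lost in both tables with adjusted p under 0.01 and with the Benjamini-Yekutieli adjustment, which gave an adjusted p of 0.122 for ALKBH5 and 0.178 for RBM33 from the authors' deposited tables.

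Among the 12 plus-strand mRNAs, the more abundant ones per length had the more negative values. The log2 fold change correlated with the average log2 CPM per kilobase of listed length at Pearson r = -0.92 and Spearman rho = -0.89 across these 12 genes by the authors' deposited table for ALKBH5. With RBM33, r was -0.90 and rho -0.90 by the authors' deposited table. Against average log2 CPM alone, r was -0.72 and -0.59 and rho -0.74 and -0.63 for ALKBH5 and RBM33 by the authors' deposited tables. The 12 points come from the same libraries, and the average holds both arms of the comparison, so they are a description. Position along the genome showed no such order, with rho of 0.03 and -0.08 for ALKBH5 and RBM33 by the authors' deposited tables. Listed length showed none either, with rho of -0.14 and -0.03 there. MT-ATP8 was highest per length, at 13.34 and 13.16 log2 CPM per kilobase, and MT-ND3 lowest of the 12, at 9.62 and 9.42, by the authors' deposited tables for ALKBH5 and RBM33.

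**Figure D3:**
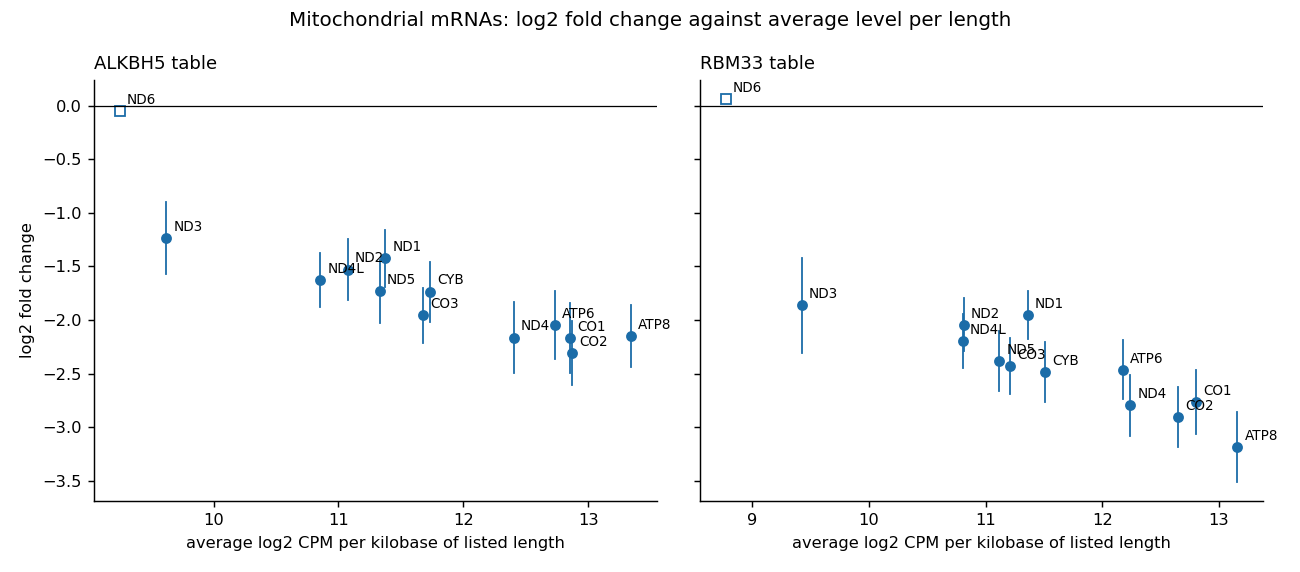
Log2 fold change (vertical axis) of the 13 mitochondrial mRNAs against average log2 CPM per kilobase of listed length (horizontal axis) in the ALKBH5 table (left) and the RBM33 table (right); names omit the prefix MT-. Lines show 1 implied standard error either side; MT-ND6 (open square) has none because its F is under 1. Values fall toward the right from MT-ND3 to MT-ATP8 and MT-CO2.

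The tRNA rows cover 59 to 75 bases each. Reads of rows this short can come from precursors that reach into the neighbouring genes, and the files do not tell those from mature tRNAs. For ALKBH5, by the authors' deposited table, the 7 negative tRNAs were those for threonine, leucine (MT-TL1), valine, lysine, glutamate, glycine and serine (MT-TS2). The values were -1.75 for MT-TT (adjusted p = 8.22e-05), -1.20 for MT-TL1 (adjusted p = 0.000528) and -1.43 for MT-TV (adjusted p = 0.000735) by the authors' deposited table for ALKBH5. They were -1.57 for MT-TK, -1.13 for MT-TE and -1.85 for MT-TG, with adjusted p between 0.00260 and 0.00284, by the authors' deposited table for ALKBH5. MT-TS2 had -3.05 with an adjusted p of 0.0450 by the authors' deposited table for ALKBH5. For RBM33, by the authors' deposited table, the 3 negative tRNAs were MT-TT at -2.19 (adjusted p = 0.00109), MT-TK at -1.31 (adjusted p = 0.00379) and MT-TL1 at -0.80 (adjusted p = 0.0201). These 3 were negative in both tables, and MT-TS2 stood at -0.78 (adjusted p = 0.0834) by the authors' deposited table for RBM33.

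The positive calls were few: 1 of the 9 minus-strand members (11.1%) for ALKBH5, against 30.5% of all genes, and 2 of 9 (22.2%) for RBM33, against 24.0%, by the authors' deposited tables. With adjusted p under 0.01, or with the Benjamini-Yekutieli adjustment, 0 and 1 of these calls were kept by the values of the authors' deposited tables for ALKBH5 and RBM33. MT-TA, the alanine tRNA (ENSG00000210127, chrM, 5587 to 5655), stood at 2.65 (adjusted p = 0.0159) with ALKBH5 and at 2.97 (adjusted p = 0.389) with RBM33 by the authors' deposited tables. Its implied standard error was 0.65 for ALKBH5 and 2.22 for RBM33, from the authors' deposited tables. MT-TQ, the glutamine tRNA (ENSG00000210107, chrM, 4329 to 4400), stood at 1.31 (adjusted p = 0.0819) and 2.17 (adjusted p = 0.00293) for ALKBH5 and RBM33 by the authors' deposited tables. It overlaps the plus-strand isoleucine tRNA MT-TI by 3 bases, and MT-TI stood at -2.70 (adjusted p = 0.203) and -1.29 (adjusted p = 0.273) for ALKBH5 and RBM33 by the authors' deposited tables. MT-TS1, a serine tRNA (ENSG00000210151, chrM, 7446 to 7514), stood at 0.02 (adjusted p = 0.972) and 1.64 (adjusted p = 0.0104) for ALKBH5 and RBM33 by the authors' deposited tables.

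Of the other minus-strand tRNAs, MT-TN (asparagine) had 0.86 and 0.46, MT-TY (tyrosine) -0.64 and 0.54, MT-TC (cysteine) -0.99 and -0.70, and MT-TP (proline) -0.05 and -0.12 for ALKBH5 and RBM33 by the authors' deposited tables. None of these 4 was called in either table, with adjusted p from 0.0573 to 0.881 by the authors' deposited tables. MT-TE (glutamate), which adjoins MT-ND6 on the same strand, was negative for ALKBH5 (above) and stood at 0.07 (adjusted p = 0.815) for RBM33 by the authors' deposited tables.

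Among plus-strand tRNAs that were called in neither table, the lowest was MT-TD, the aspartate tRNA next to MT-CO2. It had -3.78 with ALKBH5 (adjusted p = 0.174) and -4.63 with RBM33 (adjusted p = 0.0815), the lowest values of all 37 members by both of the authors' deposited tables. Its implied standard errors were 1.97 and 1.28 for ALKBH5 and RBM33, from the authors' deposited tables. MT-TH (histidine) had -1.87 and -1.12, MT-TR (arginine) -0.73 and 0.11, and MT-TF (phenylalanine) -0.43 and 0.10 for ALKBH5 and RBM33 by the authors' deposited tables. MT-TM (methionine) had 0.71 and 1.19, MT-TL2 (leucine) 0.85 and 1.02, and MT-TW (tryptophan) 0.60 and -0.28 for ALKBH5 and RBM33 by the authors' deposited tables. MT-TV, negative for ALKBH5, had -0.61 (adjusted p = 0.327), and MT-TG -0.92 (adjusted p = 0.0625), by the authors' deposited table for RBM33.

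Plus-strand tRNAs were set beside the nearest mRNA or rRNA of their strand, taking the mean where the distance was equal. For RBM33, by the authors' deposited table, 13 of 14 were above that neighbour and MT-TD was the exception, with a median difference over all 14 of 1.94 log2 units. For ALKBH5, 9 of 14 were above it, by a median over all 14 of 0.41, by the authors' deposited table. MT-TL2 lies directly before MT-ND5 and stood higher by 2.59 for ALKBH5 and 3.40 for RBM33, the widest differences of the 14, by the authors' deposited tables. MT-TL2 is a row of low abundance, at an average log2 CPM of 2.55 and 1.25, and was called in neither (adjusted p = 0.0965 and 0.378). Its implied standard errors were 0.42 and 0.91 from the authors' deposited tables for ALKBH5 and RBM33. MT-TT, directly after MT-CYB, differed from MT-CYB by -0.02 and 0.29 by the authors' deposited tables. Rows of RNAs cut from the same precursor thus had unlike values within each table, in part at low abundance, and none of these differences was tested.

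The F statistic and p-value of a gene together give the degrees of freedom of its test, which here took a common value for most genes: 13.2 by the authors' deposited table for ALKBH5 and 11.2 in that for RBM33. In the edgeR tool that the processing notes name, a robust setting gives fewer degrees of freedom to genes whose spread between libraries is unusually large; whether it was used is not stated. Among members with an F of at least 1, 14 of 34 were below the common value, against 3.16% of all such genes by the authors' deposited table for ALKBH5. For RBM33, by the authors' deposited table, 7 of 29 were below it, against 1.60% of all such genes. The tRNAs made up 12 of the 14 and 6 of the 7, and MT-ND3 was below it by both of the authors' deposited tables. Of other genes with a listed length of at most 75 bases, 7 of 27 and 3 of 28 were below it by the authors' deposited tables for ALKBH5 and RBM33. Of 71 nuclear subunit genes (below), 3 of the 70 with such an F were below it for ALKBH5 and 1 of 70 for RBM33 by the authors' deposited tables.

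The lowest members with an F of at least 1 were MT-TD (4.22 for ALKBH5 and 2.61 for RBM33), MT-TI (4.23 and 4.16) and MT-TA (5.33 and 2.31) by degrees of freedom implied by the authors' deposited tables. MT-TS2 had 4.33 for ALKBH5 and 10.2 for RBM33 by the same measure of the authors' deposited tables. These are the tRNAs whose large values were not called, or were called with a high adjusted p. MT-ND6, with an F under 1, was left out of the counts and the plot. Its implied degrees of freedom were 13.2 for ALKBH5 and 4.16 for RBM33 from the authors' deposited tables. Comparing the 2 RBM33 pull-downs with the 3 of the vector leaves 3 degrees of freedom among libraries, and MT-TA and MT-TD fell below it by the authors' deposited table for RBM33. No member fell below the 4 (ALKBH5) and 2 (RBM33) left when pull-down and input of the same bait are compared, by the values of the authors' deposited tables. For ALKBH5 the vector pull-downs as comparator leave 4 as well. A fit over pull-down and input of both bait and vector leaves 8 for ALKBH5 and 6 for RBM33. Of members with an F of at least 1, 6 fell below that in each of the authors' deposited tables.

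**Figure D4:**
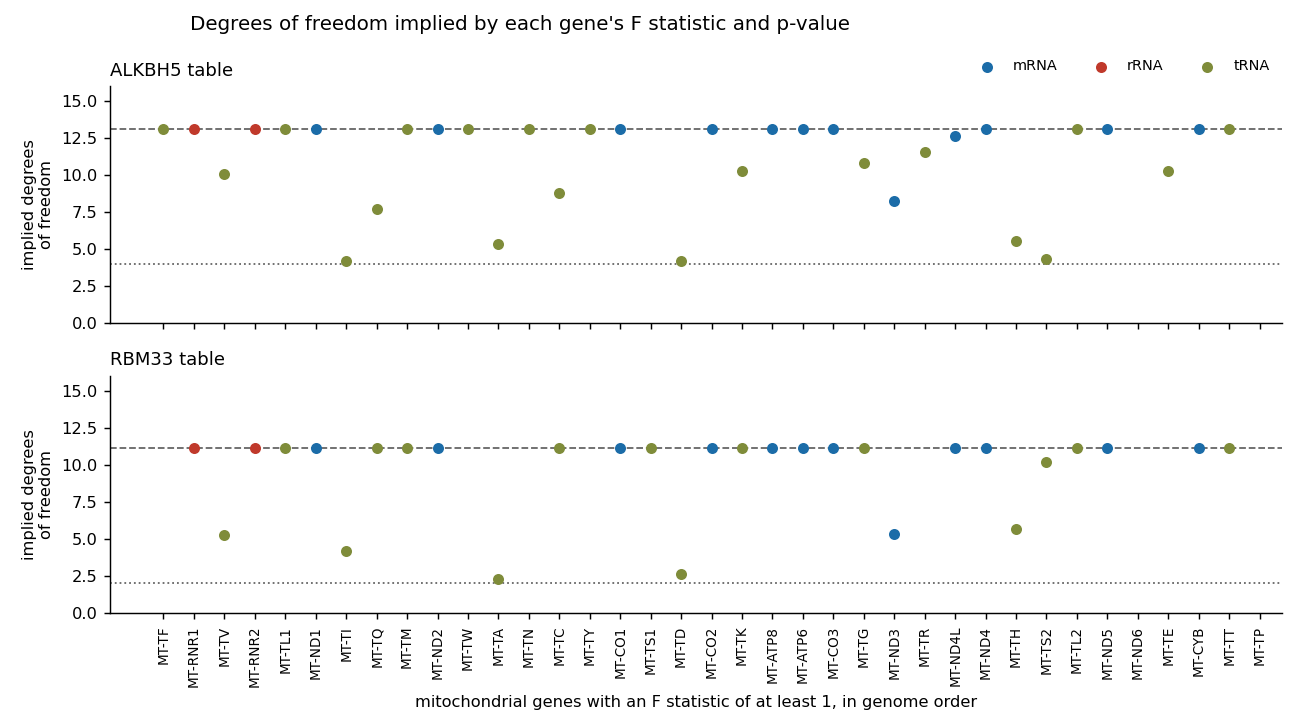
Degrees of freedom (vertical axis) implied by the F statistic and p-value of each mitochondrial gene with F of at least 1, in genome order, in the ALKBH5 table (top) and the RBM33 table (bottom). The dashed line is the common value of each table (13.2 and 11.2), the dotted line the number left among libraries by a fit of pull-down against own input (4 and 2), and tRNAs (green) make up most points below the dashed line.

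The values of the ALKBH5 and RBM33 tables can only be set side by side, since it is not stated whether they share libraries or were scaled together. Each of the 12 plus-strand mRNAs was less negative for ALKBH5 than for RBM33, by 0.41 (MT-ATP6) to 1.03 (MT-ATP8) log2 units by the authors' deposited tables. The implied standard errors of these mRNAs were 0.25 to 0.34 and 0.22 to 0.44 by the authors' deposited tables for ALKBH5 and RBM33. MT-RNR1 differed most among the longer RNAs, by 1.89 (-0.83 for ALKBH5 and -2.72 for RBM33 by the authors' deposited tables). The tRNAs ran the other way: 5 of 22 were above and 17 below their RBM33 value in the ALKBH5 table, with a median difference of -0.51 between the authors' deposited tables. The median difference of all genes was 0.06 and that of the 71 nuclear subunit genes 0.12 between the authors' deposited tables. None of these differences was tested.

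The other genes of the pathway came from fixed lists. Nuclear genes for subunits of the same complexes (I, III, IV and V) were negative for 65 of 71 and positive for 1, with a median of -1.44, by the authors' deposited table for ALKBH5. The corresponding counts for RBM33 were 66 and 0, with a median of -1.54, by the authors' deposited table. Of all genes, 29.1% were negative and 30.5% positive for ALKBH5, and 27.0% and 24.0% for RBM33, by the authors' deposited tables. Mitochondrial mRNAs had medians of -1.74 and -2.43 for ALKBH5 and RBM33 there, by the authors' deposited tables. COX6C, a small subunit of complex IV, had the smallest adjusted p of the 71 nuclear genes in both tables. It stood at -2.65 (adjusted p = 1.12e-08) with ALKBH5 and -2.93 (adjusted p = 1.30e-06) with RBM33 by the authors' deposited tables. The 3 mitochondrial mRNAs of complex IV had medians of -2.17 and -2.76 for ALKBH5 and RBM33 by the authors' deposited tables. The 10 nuclear subunit genes of complex IV had medians of -1.79 and -1.69 there. For complex V, the 2 mitochondrial mRNAs had a median of -2.10 and the 15 nuclear ones -1.38 for ALKBH5, and -2.82 and -1.56 for RBM33, by the authors' deposited tables.

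Mitochondrial ribosomal proteins, which surround MT-RNR1 and MT-RNR2 in the ribosome, are nuclear encoded. Of their 82 mRNAs, 78 were negative and 1 positive for ALKBH5 (median -1.32), and 71 negative and 0 positive for RBM33 (median -1.35), by the authors' deposited tables. MRPS23, a small-subunit protein, stood at -2.37 (adjusted p = 1.44e-08) and -2.26 (adjusted p = 4.37e-06) for ALKBH5 and RBM33 by the authors' deposited tables. Among mRNAs of cytosolic ribosomal proteins, 81 of 84 were negative by each of the authors' deposited tables, with medians of -1.59 and -1.48 for ALKBH5 and RBM33. The share of all genes called negative was 29.1% for ALKBH5 and 27.0% for RBM33 by the authors' deposited tables.

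A list of 42 nuclear-encoded factors held those that transcribe, process and stabilise mitochondrial RNA, and a few that copy mitochondrial DNA. Of these, 14 (33.3%) were negative and 13 (31.0%) positive for ALKBH5 (median -0.18), against 29.1% and 30.5% of all genes, by the authors' deposited table. For RBM33, 14 (33.3%) were negative and 8 of the 42 positive (median 0.04), against 27.0% and 24.0% of all genes, by the authors' deposited table. These shares are near those of all genes. SLIRP, which binds mitochondrial mRNAs together with LRPPRC, stood at -1.95 (adjusted p = 6.40e-07) and -2.21 (adjusted p = 4.20e-06) for ALKBH5 and RBM33 by the authors' deposited tables. HSD17B10, a subunit of mitochondrial RNase P, stood at -1.34 (adjusted p = 7.17e-05), and POLG2, the accessory subunit of the mitochondrial DNA polymerase, at 1.71 (adjusted p = 0.000174) by the authors' deposited table for RBM33.

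**Figure D5:**
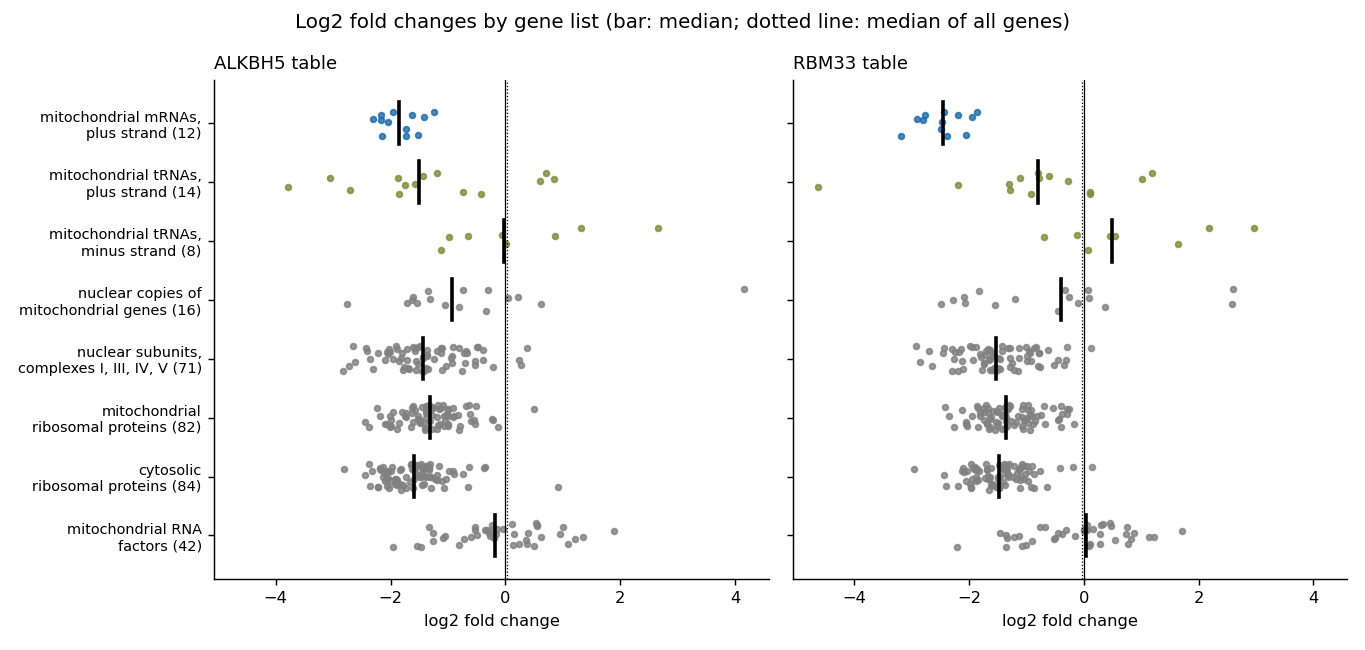
Log2 fold change (horizontal axis) by gene list in the ALKBH5 table (left) and the RBM33 table (right); each point is a gene, the bar is the list's median, the dotted line the median of all genes, and the number of genes stands in brackets. The 12 plus-strand mitochondrial mRNAs have medians of -1.85 and -2.45, and minus-strand tRNAs -0.02 and 0.50.

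The mitochondrial mRNAs are short and abundant, and nuclear mRNAs with both features together were negative as well. Nuclear protein-coding genes within the mitochondrial mRNAs' range of both average log2 CPM and listed length numbered 32 by the authors' deposited table for ALKBH5, and 32 were negative, with a median of -1.87. That median is below the -1.74 of mitochondrial mRNAs, and 20 of the 32 lay below -1.74 by the authors' deposited table for ALKBH5. For RBM33, by the authors' deposited table, 40 such genes were found and 40 were negative, with a median of -1.97, and 3 of the 40 lay below the mitochondrial median of -2.43. Without cytosolic ribosomal protein genes, 28 and 34 such genes remained, and 28 and 34 were negative. By abundance range alone, 77.9% of 331 genes and 74.7% of 435 were negative for ALKBH5 and RBM33 by the authors' deposited tables. By listed length range alone, 61.9% and 60.9% of 925 were negative there. Positive calls numbered 36 and 52 by abundance, and 45 and 26 by length. Of all protein-coding genes, 33.3% were negative for ALKBH5 and 31.2% for RBM33 by the authors' deposited tables. How the listed length was computed is not stated, and for nuclear genes it may exceed that of any single transcript. The parts of length and abundance in the values were not tested.

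Nuclear copies of mitochondrial genes can share reads with their sources. A block on chromosome 1 (629062 to 634922, hg38, plus strand) holds 7 listed copies, of which 6 were negative for ALKBH5 and 5 for RBM33, and 0 positive, by the authors' deposited tables. Of all genes, 29.1% and 27.0% were negative by the authors' deposited tables for ALKBH5 and RBM33. MTCO1P12, the copy of MT-CO1 in that block, stood at -1.54 (adjusted p = 7.97e-05) and -2.08 (adjusted p = 3.66e-05) for ALKBH5 and RBM33 by the authors' deposited tables. Its average CPM was 9.51 and 11.6 times lower than that of MT-CO1 by the authors' deposited tables for ALKBH5 and RBM33. MTATP6P1, the copy of MT-ATP6, stood at -1.61 (adjusted p = 2.56e-05) and -2.09 (adjusted p = 1.61e-05), at an average CPM 9.26 and 7.62 times lower than its source, by the authors' deposited tables for ALKBH5 and RBM33. MTATP8P1, 678 and 915 times lower than MT-ATP8, stood at 0.04 and 0.09 and was not called by the authors' deposited tables.

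Over all 16 listed copies, 8 (50.0%) were negative and 1 (6.25%) positive for ALKBH5, against 29.1% and 30.5% of all genes, by the authors' deposited table. For RBM33, 7 (43.8%) were negative and 2 (12.5%) positive, against 27.0% and 24.0% of all genes, by the authors' deposited table. MTND4P12, on chromosome 5 (134926660 to 134928036, minus strand), stood at -2.76 (adjusted p = 5.77e-07) and -2.49 (adjusted p = 1.65e-05) for ALKBH5 and RBM33 by the authors' deposited tables. MTCYBP32, unlike MT-CYB, was positive, at 4.15 (adjusted p = 0.000353) and 2.60 (adjusted p = 0.0324) for ALKBH5 and RBM33 by the authors' deposited tables. So was MTND5P11 for RBM33, at 2.59 (adjusted p = 0.0453), by the authors' deposited table. Both were rare, at an average log2 CPM of 0.85 and 0.14 there. MTRNR2L12, which resembles MT-RNR2, stood at -1.35 (adjusted p = 0.0898) and -1.83 (adjusted p = 0.0173), and its average CPM was 1199 times lower than that of MT-RNR2 by each of the authors' deposited tables. How reads matching several places were counted is not given in the sources used here, and the share of such reads in any row was not tested.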

How the data were processed

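RNA from Strep-tagged pull-downs and inputs of cells labelled UM-SCC-1 was sequenced as stranded total RNA after a detergent lysis, per the labels' protocols. Per the submitters' processing notes, edgeR 3.24.3, HISAT2 2.1.0, Subread 1.6.4 with its featureCounts, cutadapt 1.18 and build hg38 were named, with annotation, filter and strand setting not given in the sources used here. The 2 tables the authors deposited list 16324 genes with length and hg38 position; per the file headers, their values are log2 fold changes and log2 CPM averages. The deposited F statistic is a score with no fixed range. A deposited p-value and its adjusted form complete each row. Recomputing the Benjamini-Hochberg adjustment over 16324 genes gave the deposited adjusted p-values. No value per library is held, so no sample was grouped or tested anew, and the counts, depths and precision of single libraries are unknown here. Replicates are not said to be separate cultures, so the deposited p-values may reflect technical spread alone.

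Members and gene lists were chosen with earlier results of these data known. The rule named every row starting MT-, and for the other lists counts plus up to 4 genes with the smallest p-value. MTATP8P1, MTRNR2L12, MTCYBP32, MTND5P11 and, among the markers, NEFL, LHX1, TP63 and keratins 5 and 14 were named besides. Calls use the deposited adjusted p under 0.05. Implied degrees of freedom solve for the F distribution with 1 numerator degree of freedom that gives the deposited p-value, for genes with F of at least 1; values under 99% of the table's highest count as lower. The solver was tested on simulated data. The factor list holds 43 symbols, 2 of them names of the same gene, so 42 genes. Python 3.11.15 with pandas 2.3.3, scipy 1.17.1 and matplotlib 3.10.9 was used.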

Additional observations from a re-analysis of the deposited data

How the results depend on the processing

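The count of mitochondrial mRNAs called negative stayed within 1.5 times of 12 under each alternative run, in both tables: adjusted p under 0.01, a minimum of 1 log2 unit, the Benjamini-Yekutieli adjustment, subtraction of the median of all or of protein-coding genes, and members of at least median abundance only. The count of members called negative did so too. Centring could not change either count, because it left the adjusted p as deposited. The medians it subtracted were also small: 0.03 and -0.08 for ALKBH5, and -0.02 and -0.13 for RBM33. All 13 mRNAs had at least median abundance, so that restriction dropped none of them and could not change their count. Positive calls moved: 0 remained for ALKBH5 and 1 for RBM33 at adjusted p under 0.01 and likewise with the Benjamini-Yekutieli adjustment, and 0 for RBM33 among members of at least median abundance. At 0.01 and with Benjamini-Yekutieli the calls of MT-TA, MT-ND3 and MT-TS2 were lost for ALKBH5, and those of MT-TL1, MT-TS1 and MT-ND3 for RBM33. The median of tRNAs was -0.86 for ALKBH5 and -0.20 for RBM33 and moved to -1.43 over the 11 and -0.79 over the 8 tRNAs of at least median abundance, by construction a smaller set. No call changed sign under either centring, as the subtracted medians were too small to do so. No paired analysis was possible because the tables hold no value per library, and leaving out libraries could not be run for the same reason. Depth per library is unknown, so limits for low rows such as MT-TL2 or MT-TR cannot be given.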
